A study of Mus musculus with 2 samples.

Results

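The 33 genes described here carry out or control the synthesis of cholesterol and fatty acids, out of 27998 genes in the count tables. They were chosen by symbol from knowledge of the pathways: 18 enzymes of sterol synthesis, 5 regulators of the pathway, the sterol carrier Stard4, and 9 enzymes of fatty acid synthesis, desaturation and elongation. All 33 symbols were found. They were read in microglia, the resident macrophages of the brain, sorted by flow cytometry from the corpus callosum, the white matter tract that joins the hemispheres. One single-cell library was made from the medial and one from the lateral corpus callosum, and the comparison is medial against lateral. All mice were C57Bl6, labelled CX3CR1 for genotype, and ate cuprizone for 4 weeks, a copper-binding toxin under which oligodendrocytes die and myelin is lost. Both regions share genotype, agent and time, and no untreated library was analysed here. The sources used here do not give the CX3CR1 allele, the age of the mice, their number per library or the gate of the sort. A region with 1 library allows no test, and the intervals below (95%, exact) cover counting error only.

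Cholesterol is built from acetyl-CoA through mevalonate, isoprenoid units, squalene and lanosterol, and fatty acids are built from acetyl-CoA through malonyl-CoA. Transcription of both sets of enzymes is driven by the sterol regulatory element binding proteins (SREBPs), membrane-bound factors that SCAP carries out of the endoplasmic reticulum when sterols are low and that the INSIG proteins hold back when sterols are high. SREBP2 acts mainly on sterol genes and SREBP1c mainly on fatty acid genes. Microglia in demyelinated white matter take up cholesterol-rich myelin debris, so they meet sterol from outside as well as making it, and intermediates near the end of the pathway can activate the liver X receptors (LXRs), which drive cholesterol export.

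Promoters of 4 members are shown because they hold, or for Insig1 do not hold in this window, the letters of the sterol regulatory element that SREBPs bind. Each run is the 250 bases before the transcription start given by RefSeq on GRCm38.p6, 5′ to 3′ on the strand of the gene. Capitals mark matches on either strand to TCACNCCA, the core letters of a classical sterol regulatory element, and to CCAAT, the letters bound by NF-Y, a common partner of SREBPs. Hmgcs1 lies at chr13:119690101-119690350 on the plus strand, Msmo1 at chr8:64733579-64733828 on the minus strand, Srebf2 at chr15:82147019-82147268 on the plus strand and Insig1 at chr5:28071162-28071411 on the plus strand.
Hmgcs1: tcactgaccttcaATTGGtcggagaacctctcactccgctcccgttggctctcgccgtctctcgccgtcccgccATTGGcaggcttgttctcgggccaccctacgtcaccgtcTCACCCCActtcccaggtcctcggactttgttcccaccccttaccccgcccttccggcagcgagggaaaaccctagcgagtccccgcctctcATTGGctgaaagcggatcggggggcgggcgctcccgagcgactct
Msmo1: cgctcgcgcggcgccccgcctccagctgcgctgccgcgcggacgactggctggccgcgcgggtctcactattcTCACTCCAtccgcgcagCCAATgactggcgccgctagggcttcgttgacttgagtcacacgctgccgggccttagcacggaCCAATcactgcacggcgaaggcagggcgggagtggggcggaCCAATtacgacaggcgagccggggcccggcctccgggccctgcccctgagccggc
Srebf2: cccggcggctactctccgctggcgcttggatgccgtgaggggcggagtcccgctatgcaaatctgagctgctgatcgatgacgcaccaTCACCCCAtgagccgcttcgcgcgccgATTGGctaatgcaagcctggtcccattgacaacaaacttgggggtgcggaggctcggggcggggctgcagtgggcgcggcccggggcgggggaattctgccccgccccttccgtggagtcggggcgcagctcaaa
Insig1: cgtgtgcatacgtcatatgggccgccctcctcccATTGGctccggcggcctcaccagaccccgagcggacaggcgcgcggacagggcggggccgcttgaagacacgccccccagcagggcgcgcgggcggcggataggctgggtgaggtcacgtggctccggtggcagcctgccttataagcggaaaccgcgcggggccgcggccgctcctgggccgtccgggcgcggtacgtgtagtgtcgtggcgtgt

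RefSeq promoters of 300 bases, from 250 before to 50 after the start, were found for 27 of the 33 members, and Fdps, Fdft1, Sqle, Stard4, Scd2 and Fads1 had no entry. CCAAT on either strand was present in 14 of the 15 sterol enzyme genes with an entry, or 93.3%, beside 43.0% of the 7593 genes with at least 100 UMIs (unique molecular identifiers, 1 per counted molecule) and an entry. Among fatty acid enzymes 4 of 7 genes, or 57.1%, held it. GGGCGG, the letters bound by Sp1, was present in 93.3% of those sterol genes and 42.9% of those fatty acid genes, beside 71.3% of the measured genes. The longer form TCACNCCAC was found in 1 sterol gene, Hmgcs1, and the shorter TCACNCCA in 2, Hmgcs1 and Msmo1, and in Srebf2 among the regulators. By gene, the shorter form was present in 4.39%, the longer one in 1.34% and TCACGTGA in 2.49% of the measured genes with an entry. Over all 32851 promoters the shorter form was present in 4.36%, the longer one in 1.24%, CCAAT in 37.4% and GGGCGG in 35.7%. TCACGTGA, a palindromic E-box that SREBPs can bind, was found in no member's window and in 0.974% of all promoters. The shorter form contains no CCAAT, while every match to the longer form is also one to the shorter. These are matches of letters and do not show binding.

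**Figure D1:**
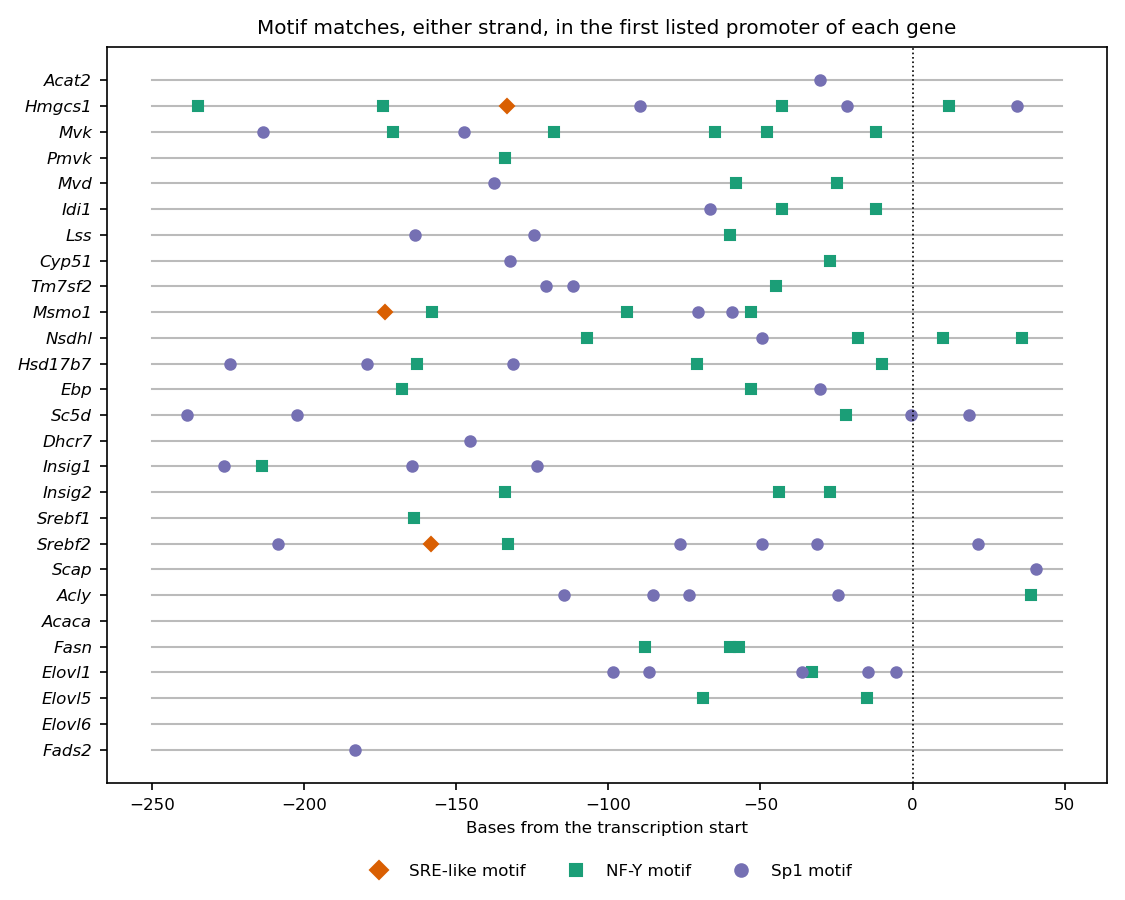
Matches to the sterol regulatory element core (SRE-like), to CCAAT (NF-Y) and to GGGCGG (Sp1) on either strand in the first listed promoter of each of 27 members, placed by distance in bases from the transcription start (dotted line). Each grey line is 1 promoter of 300 bases. SRE-like matches stand on the lines of Hmgcs1, Msmo1 and Srebf2.

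The libraries held 28660496 medial and 27955414 lateral UMIs, of which 81.79% and 82.44% lay in the 2131 and 2308 barcodes kept as cells. A cell had a median of 10732 and 9694 UMIs. All 11 microglial markers were found in both libraries, at a median of 4.174% and 4.216% of a cell's UMIs. Markers of 13 other cell types were low, from 0.128 to 124.5 CPM (UMIs of a gene scaled to 1000000 UMIs) summed over a list in the medial and from 0.0434 to 111.9 in the lateral library, the highest being the dendritic list with Siglech, a gene that microglia also express. Some of these lists differed between regions, border macrophage (46.8 and 35.8 CPM, log2 0.39, 0.25 to 0.52), monocyte (1.92 and 0.738 CPM, 1.38, 0.55 to 2.28), endothelial (0.22, 0.14 to 0.30), dendritic (0.15, 0.08 to 0.23) and neuron (-0.50, -0.89 to -0.11), and their part in the members' ratios was not tested. Of the lists of cell states, the medial library was higher in the immediate early list (14945 against 11913 CPM, log2 ratio 0.33), MHC class II (0.23), LXR targets (0.20) and interferon response (0.15), and lower in cycling genes (-0.24), damage-associated genes (-0.20) and glycolysis and hypoxia genes (-0.17). The 2 libraries shared 7 barcodes among 4439 cells. Over 9843 genes with at least 100 UMIs over both libraries the median log2 ratio of medial to lateral was -0.037.

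Both branches were expressed at a low level that was nearly the same in the 2 regions. The 18 sterol enzymes summed to 207.4 CPM (201.6 to 213.3) in the medial and 220.8 CPM (214.7 to 226.9) in the lateral library. That is a log2 ratio of -0.09 (-0.15 to -0.03). The 9 fatty acid enzymes summed to 242.3 CPM (236.0 to 248.6) and 249.3 CPM (242.9 to 255.8), a log2 ratio of -0.04 (-0.09 to 0.01). The sterol branch made up 46.1% (45.2 to 47.1, exact binomial) of the UMIs of both branches in the medial and 47.0% (46.0 to 47.9) in the lateral library, and these intervals overlap. A few genes carried each branch. Ebp, Pmvk and Hmgcs1 gave 55.3% of the medial and 54.8% of the lateral sterol sum, and Elovl1, Scd2 and Acly gave 77.3% and 78.3% of the fatty acid sum. With a 3′ assay each molecule is counted at 1 end, so CPM was not divided by transcript length when genes were set side by side.

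**Figure D2:**
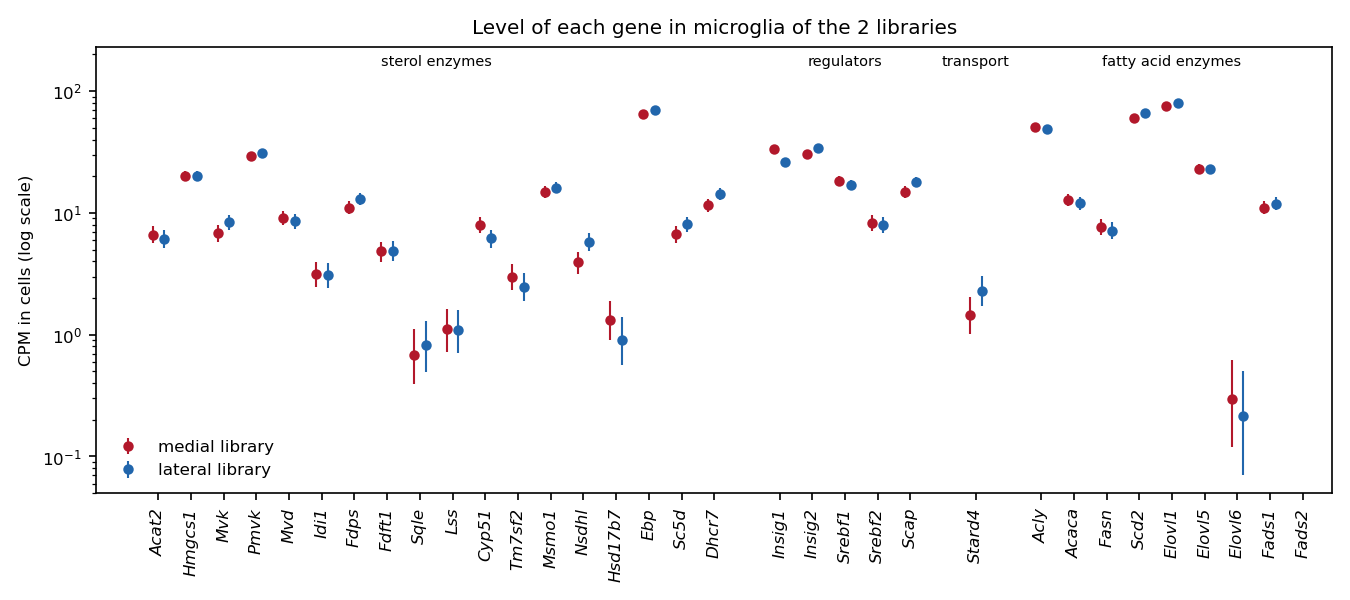
Level of each member in cells of the medial (red) and lateral (blue) library, in CPM on a log axis, with exact Poisson 95% intervals that cover counting error only. Genes are in pathway order within each role. Ebp, Elovl1, Scd2 and Acly stand at the top, and Fads2, with 0 UMIs, has no point.

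In the early, mevalonate steps the levels differed widely between genes and little between regions. Acat2, which joins 2 acetyl-CoA units, stood at 6.61 CPM medial and 6.12 CPM lateral. Hmgcs1, the HMG-CoA synthase, stood at 20.13 and 19.96 CPM with a log2 ratio of 0.01 (-0.18 to 0.20). Both genes were at nearly equal levels in the 2 libraries. Mvk, which phosphorylates mevalonate, stood at 6.78 CPM (5.77 to 7.92) medial and 8.42 CPM (7.27 to 9.69) lateral, a log2 ratio of -0.31 (-0.62 to -0.00). Pmvk, the next kinase, was the second most abundant sterol enzyme at 29.4 and 30.8 CPM, with a log2 ratio of -0.07. Mvd, which makes isopentenyl diphosphate by decarboxylation, stood at 9.13 and 8.59 CPM, and Idi1, which isomerises it, at 3.16 and 3.08 CPM.

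Fdps joins isoprenoid units to farnesyl diphosphate and lay just short of the 1.2-fold mark used below, at 11.01 CPM (9.70 to 12.4) medial and 13.1 CPM (11.7 to 14.7) lateral, a log2 ratio of -0.25 (-0.50 to -0.01). Fdft1, the squalene synthase, stood at 4.82 and 4.90 CPM. The 2 steps that follow it were rare: Sqle, the squalene epoxidase, had 16 and 19 UMIs and Lss, the lanosterol synthase, 26 and 25 UMIs. The squalene steps were therefore among the lowest of the pathway in both regions.

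After lanosterol, the 2 measured genes that passed 1.2-fold higher in the medial library act one after the other. Cyp51, the lanosterol demethylase, stood at 7.98 CPM (6.88 to 9.21) medial and 6.16 CPM (5.19 to 7.26) lateral, a log2 ratio of 0.37 (0.05 to 0.70). Tm7sf2, a sterol reductase that acts on the product, stood at 2.99 and 2.47 CPM, with a log2 ratio of 0.27 whose interval spans 0 (-0.25 to 0.80). Msmo1, the sterol methyl oxidase, stood at 14.8 and 16.1 CPM with a log2 ratio of -0.12 (-0.33 to 0.10). Nsdhl, which removes the carboxylated methyl group that Msmo1 makes, showed the widest ratio of the measured members, 3.92 CPM (3.16 to 4.81) medial against 5.77 CPM (4.83 to 6.84) lateral. Its log2 ratio was -0.56 (-0.96 to -0.16), and the intervals of the 2 levels do not overlap. Hsd17b7, the ketosteroid reductase of the same complex, had 31 and 21 UMIs. Ebp, which moves a double bond in the sterol ring, was the most abundant sterol enzyme at 65.2 CPM (62.0 to 68.5) medial and 70.2 CPM (66.8 to 73.7) lateral, a log2 ratio of -0.11 (-0.21 to -0.00). Sc5d, the desaturase that follows, stood at 6.70 and 8.07 CPM with a log2 ratio of -0.27 (-0.58 to 0.05). Dhcr7, the last enzyme of one route to cholesterol, stood at 11.6 CPM (10.3 to 13.1) medial and 14.2 CPM (12.7 to 15.9) lateral, a log2 ratio of -0.29 (-0.53 to -0.06). All 4 late enzymes from Nsdhl to Dhcr7 with at least 100 UMIs had log2 ratios below 0, by different amounts. So did 5819 of all 9843 genes with at least 100 UMIs, and the interval of Sc5d spans 0.

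Among the regulators the clearest difference was in Insig1. Insig1, at chr5:28071363-28078662 on GRCm38, is an anchor of the SCAP-SREBP complex and is itself an SREBP target. It stood at 33.5 CPM (31.2 to 36.0) in the medial and 26.2 CPM (24.2 to 28.4) in the lateral library, from 786 and 604 UMIs. The log2 ratio was 0.36 (0.20 to 0.51). It lay between 0.19 and 0.52 in 13 alternative settings, which reuse UMIs of the same 2 libraries and are not replicates. Insig2, the paralogue with the same anchoring role, stood at 30.7 and 34.2 CPM with a log2 ratio of -0.15 (-0.30 to -0.01). The 2 anchors thus stood in opposite order in the 2 regions. Scap, the escort protein, stood at 14.9 CPM (13.4 to 16.5) medial and 17.9 CPM (16.2 to 19.7) lateral, a log2 ratio of -0.27 (-0.48 to -0.06). Srebf1, which encodes SREBP1, stood at 18.3 and 16.9 CPM with a log2 ratio of 0.11 (-0.09 to 0.31), and Srebf2, which encodes SREBP2, at 8.28 and 7.98 CPM with 0.05 (-0.25 to 0.35). Both factors had intervals that span 0. Stard4, a cytosolic sterol carrier, had 34 UMIs medial and 53 lateral, or 1.45 CPM (1.004 to 2.03) and 2.30 CPM (1.72 to 3.01).

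The ratios of the 7 measured fatty acid enzymes spread less, from -0.12 to 0.10, than those of the 15 measured sterol enzymes, from -0.56 to 0.37. The former had 345 to 3617 UMIs per gene and the latter 127 to 3145, and ratios of rarer genes scatter more. The part of depth in this contrast was not tested. Acly, which makes cytosolic acetyl-CoA from citrate and so feeds both branches, stood at 51.2 and 49.2 CPM, a log2 ratio of 0.06 (-0.06 to 0.17). Acaca, the acetyl-CoA carboxylase, stood at 12.84 and 12.02 CPM, and Fasn, the fatty acid synthase, at 7.68 and 7.16 CPM, each with a log2 ratio of 0.10. Scd2, the stearoyl-CoA desaturase of brain, stood at 60.5 CPM (57.4 to 63.8) medial and 65.9 CPM (62.6 to 69.3) lateral, a log2 ratio of -0.12 (-0.23 to -0.02). Elovl1, which elongates saturated very long chains, led all members with 75.7 medial and 79.96 lateral CPM, a log2 ratio of -0.08 (-0.17 to 0.02). Elovl5, which elongates polyunsaturated chains, stood at 23.0 and 22.9 CPM, and Fads1, the delta-5 desaturase, at 11.05 and 11.93 CPM with -0.11 (-0.36 to 0.14). Elovl6, which elongates the product of Fasn, had 7 and 5 UMIs. Fads2, the delta-6 desaturase that acts before Elovl5 and Fads1, had 0 UMIs in both libraries, where 3 counts would be 0.128 and 0.130 CPM. The polyunsaturated route was therefore counted at its elongation and delta-5 steps but not, at this depth, at its delta-6 step.

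**Figure D3:**
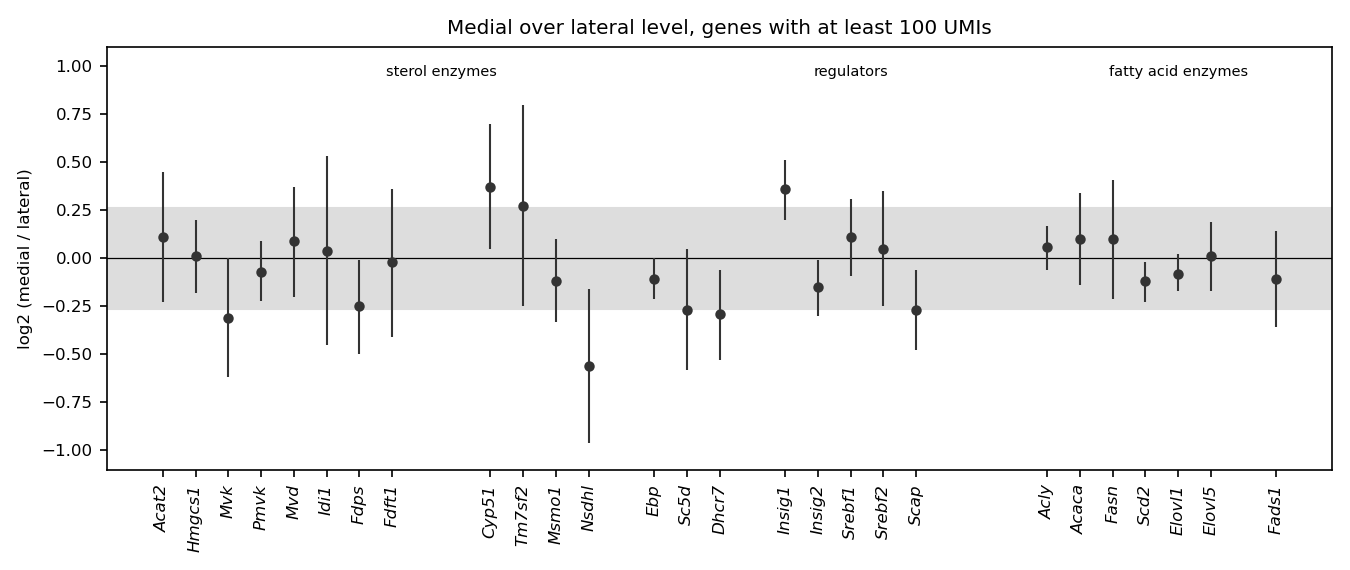
Log2 ratio of the medial to the lateral level for the 27 members with at least 100 UMIs, with exact conditional binomial 95% intervals that cover counting error only. The grey band spans a ratio of 1.2 in either direction. Cyp51 (0.37), Insig1 (0.36) and Tm7sf2 (0.27) lie above the band. Nsdhl (-0.56), Mvk (-0.31), Dhcr7 (-0.29), Sc5d (-0.27) and Scap (-0.27) lie below it, and all 7 fatty acid enzymes within it.

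With a ratio of 1.2 as the mark, 3 of the 27 measured members were higher in the medial library, Cyp51, Insig1 and Tm7sf2, beside 7.42% of all measured genes. The lower ones were 5, Nsdhl, Mvk, Dhcr7, Sc5d and Scap, beside 7.49% of genes. Members had fewer UMIs than measured genes at large, a median of 578 against 912, and ratios of rarer genes scatter more. Of the 19 members with at least 100 and under 1000 UMIs, 2 were higher and 5 lower, beside 9.84% and 12.2% of the genes in that range. By role, 2 sterol enzymes were higher and 4 lower of 15, with a median log2 ratio of -0.068, and 1 regulator was higher and 1 lower of 5, with a median of 0.052. No fatty acid enzyme of 7 passed the mark, with a median of 0.011 and values from -0.12 to 0.10. Of all measured genes 14.9% passed it in either direction. The median over all 27 was -0.025, close to the -0.037 of all genes. Centred on the median gene, or scaled by TMM, 3 members were higher and 2 lower, in place of 3 and 5. Only Mvk, Nsdhl, Dhcr7, Insig1, Scap and, under the mark, Fdps kept their direction in all 13 alternatives that were run for each gene. These alternatives reuse UMIs of the same 2 libraries, and the share of all genes that keep their direction is not given here.

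Several members share sequence or place with other genes, so their counts are less certain. Of 57-base windows in the last 500 bases of their transcripts, 48.5% of Fdps, 38.3% of Idi1, 29.8% of Acat2 and 19.7% of Acaca also occur in another gene, mostly pseudogenes or, for Acat2, its copy Acat3. Tm7sf2 overlaps exons of Vps51 on the same strand. Fdft1 overlaps Ctsb, Cyp51 overlaps Akap9, Elovl1 overlaps Cdc20 and Srebf1 overlaps Rai1, each on the opposite strand, and the use of strand in counting was not stated in the labels. The part of these overlaps in the values was not tested.

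Other genes of the pathways were set beside the members. Of 17 measured genes of sterol and isoprenoid metabolism, export and uptake, 0 were higher and 1 lower by 1.2, with a median log2 ratio of -0.038. The lower one was Ubxn8, an adaptor of protein degradation at the endoplasmic reticulum, at 16.5 and 21.3 CPM (-0.37, -0.56 to -0.17). Of these, the 3 with most UMIs handle or export cholesterol. Npc2, a lysosomal cholesterol carrier, was at 2022 and 2106 CPM, and the LXR-driven exporters Abca1 and Abcg1 at 220.2 and 206.4 CPM and at 175.9 and 186.7 CPM. Abca1 alone was thus about as abundant as the 18 sterol enzymes together. Of 16 measured genes of fatty acid metabolism none passed 1.2 in either direction, and the median was -0.110. The most abundant were Fabp5, a fatty acid carrier that is also on the damage-associated list (488.9 and 537.3 CPM, -0.14), and 2 enzymes of the elongation cycle that work with the Elovl proteins, Tecr (149.5 and 166.5 CPM, -0.16) and Hacd2 (108.7 and 127.8 CPM, -0.23).

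The immediate early list moved with the region, so the members were read within terciles of cells by the share of that list, cut on both libraries together. The terciles held 513, 773 and 845 medial and 967, 706 and 635 lateral cells, from the lower to the upper. Within each tercile the median share was still higher in medial cells, at 0.605%, 0.959% and 2.07% against 0.576%, 0.941% and 1.93% lateral. The part of this remaining difference in the ratios was not tested. Insig1 stood at 26.3, 31.4 and 39.4 CPM in the medial and at 23.1, 24.8 and 32.0 CPM in the lateral library. Its ratio was thus above 0 in each tercile, at 0.19 (-0.13 to 0.50), 0.34 (0.06 to 0.62) and 0.30 (0.06 to 0.55), and it was also higher toward the upper tercile in both libraries. Srebf1 stood at 14.4, 15.7 and 22.9 CPM medial and 12.73, 16.04 and 23.74 CPM lateral, with ratios between the regions of 0.18 (-0.26 to 0.60), -0.04 (-0.41 to 0.34) and -0.05 (-0.36 to 0.25). Srebf1 was thus highest in the upper tercile of both libraries, and each of its ratios between the regions had an interval that spans 0, as did the lower tercile's for Insig1. The widest ratios between regions moved with the tercile: Nsdhl had -1.096 (-2.02 to -0.25), -0.52 (-1.17 to 0.13) and -0.22 (-0.95 to 0.51), and Cyp51 -0.02 (-0.62 to 0.57), 0.55 (-0.03 to 1.14) and 0.70 (0.10 to 1.34), with wide intervals. The summed sterol enzymes had ratios of -0.19 (-0.30 to -0.08), -0.09 (-0.18 to 0.01) and 0.01 (-0.09 to 0.11). The sterol sum was thus lower in the medial library in the lower tercile and level with it in the upper one, and the difference between terciles was not tested.

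From the lower to the upper tercile, a contrast chosen after the data were seen, the log2 difference of Srebf1 was 0.67 (0.29 to 1.06) medial and 0.90 (0.55 to 1.25) lateral. It was the 1 member higher by at least 1.5-fold in both libraries, beside 4.77% of genes, and 0 members were lower, beside 0.825%. Insig1 differed by 0.58 (0.30 to 0.87) and 0.47 (0.19 to 0.75), and Acly by 0.36 (0.14 to 0.58) and 0.41 (0.20 to 0.61). The branch sums differed less: the sterol sum by 0.07 (-0.04 to 0.18) and -0.13 (-0.23 to -0.03) and the fatty acid sum by 0.04 and -0.04. The immediate early list includes genes that dissociation of tissue can raise, and the part of dissociation in these values was not tested.

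**Figure D4:**
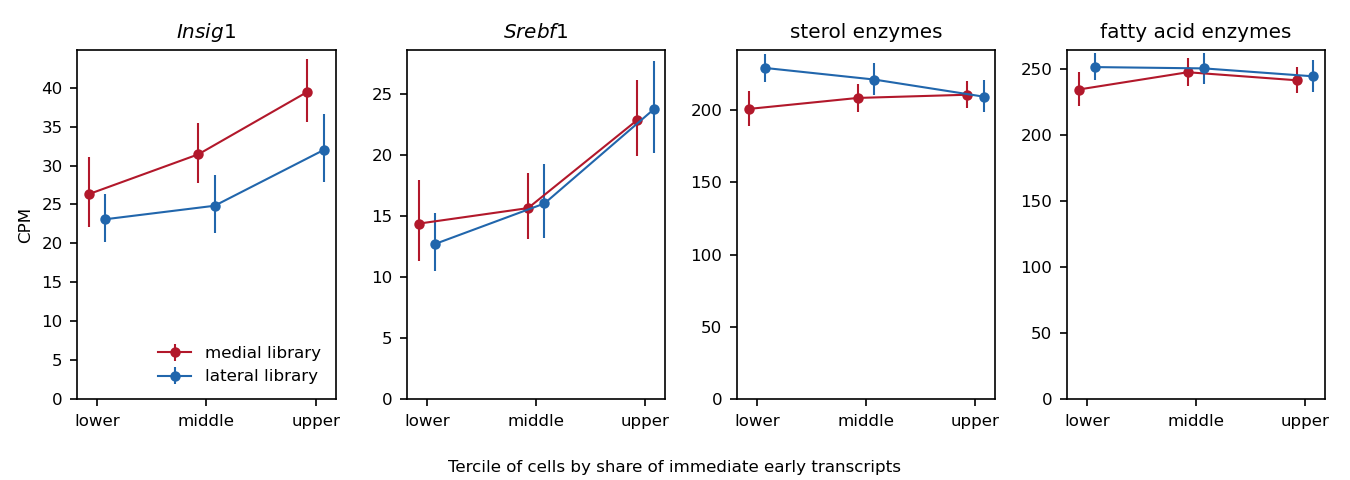
Level in CPM of Insig1, Srebf1 and the summed sterol and fatty acid enzymes in the lower, middle and upper tercile of cells by immediate early share, in the medial (red) and lateral (blue) library, with exact Poisson 95% intervals. Insig1 runs from 26.3 to 39.4 CPM medial and from 23.1 to 32.0 CPM lateral, while both sums change little.

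The branches were then read in cells at the top 10% of each state list, against the other cells, after each cell was thinned to 3869 UMIs. Such a range is a cut of a score, not a cell type, and 22 to 214 of the 2000 medial cells lay within 10% of a cut. In cycling cells both branches were higher in both libraries. The sterol sum stood at 253.3 against 199.0 CPM (log2 0.35, 0.12 to 0.56) medial and 265.9 against 207.9 CPM (0.36, 0.14 to 0.56) lateral. The fatty acid sum stood at 308.9 against 225.6 CPM (0.45, 0.25 to 0.65) and 324.3 against 243.3 CPM (0.41, 0.22 to 0.60). Unthinned, the 4 log2 values ran from 0.30 to 0.52. Elovl1, the largest part of the fatty acid sum, overlaps exons of Cdc20 on the opposite strand. The part of that overlap in the cycling values was not tested. Cycling cells were also deeper, with a median of 13752 UMIs against 10970.5 in the medial library before thinning. Of the 27 members 4 were higher by 1.5-fold in both libraries, beside 11.5% of genes, and 1 lower, beside 3.54%, so the count is near the background. Fdps stood at 24.6 against 9.76 CPM medial (1.33, 0.51 to 2.08) and 19.9 against 12.4 CPM lateral (0.68, -0.19 to 1.45). Unthinned, Fdps was at 1.37 (0.95 to 1.77) medial and 0.50 (0.04 to 0.93) lateral, the latter short of 1.5-fold. Fads1 stood at 23.3 against 9.48 CPM medial (1.30, 0.46 to 2.06) and 19.9 against 10.4 CPM lateral (0.94, 0.06 to 1.73). Its unthinned values were 1.03 and 0.86. Acat2 and Fdft1, also higher, and Tm7sf2, lower, had too few thinned UMIs to be read (under 50 in a library, a limit set after the data were seen).

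In cells high in LXR targets both sums were lower in both libraries, the sterol sum by log2 values of -0.18 (-0.44 to 0.07) medial and -0.20 (-0.45 to 0.04) lateral and the fatty acid sum by -0.19 (-0.43 to 0.05) and -0.28 (-0.51 to -0.05). Unthinned the sterol values were -0.30 (-0.47 to -0.14) and -0.27 (-0.42 to -0.13). The list itself took a median of 11.58% of the UMIs of the medial top cells against 3.851% of the rest, and the part of that share in the CPM of other genes was not tested. The list holds Apoe, and none of its genes is a member. It summed to 48298 CPM over all medial cells, of which Abca1 gave 220.2, Abcg1 175.9, Mylip 122.6 and Nr1h3 1.19 CPM. The range was thus cut mostly by the other genes of the list, and LXR activity was not measured. No member was higher, beside 1.65% of genes, and 6 were lower by 1.5-fold in both libraries, beside 11.0%. Of those with enough UMIs, Elovl5 stood at 10.3 against 23.7 CPM medial and 14.9 against 24.2 CPM lateral, but unthinned at 22.7 against 23.1 and 17.5 against 23.4 CPM. Fasn and Mvk had 5 or fewer UMIs in each thinned top range.

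The glycolysis and hypoxia range had sterol sums of 270.1 against 197.2 CPM (0.45, 0.24 to 0.67) medial and 238.6 against 210.9 CPM (0.18, -0.05 to 0.40) lateral, with fatty acid values of 0.15 and 0.20. Unthinned the sterol values were 0.27 (0.16 to 0.39) and 0.30 (0.19 to 0.41), but the lateral value was -0.017 at the top 5% of cells. In it 2 members were higher, Sc5d and Msmo1, beside 2.09% of genes, and 0 lower, beside 3.95%. Msmo1 stood at 19.4 against 12.9 CPM medial and 24.9 against 15.2 CPM lateral, and Sc5d at 11.6 against 6.46 and 11.2 against 7.33 CPM, each with intervals that span 0. Unthinned, Msmo1 was at 0.35 (-0.10 to 0.77) medial and 0.57 (0.17 to 0.95) lateral. Sc5d was at 0.77 (0.15 to 1.34) and 0.37 (-0.23 to 0.94), so neither passed 1.5-fold in both libraries without thinning. These cells too were deeper, with 14391.5 against 10829 UMIs in the medial library. In the homeostatic range the fatty acid sum was at 0.27 (0.06 to 0.48) medial and 0.30 (0.10 to 0.50) lateral after thinning, and at 0.08 (-0.04 to 0.21) and 0.17 (0.06 to 0.28) unthinned. The sterol sum there was at -0.05 (-0.30 to 0.19) and 0.30 (0.08 to 0.51) after thinning, and at 0.24 (0.11 to 0.36) and 0.34 (0.23 to 0.46) unthinned. There 1 member was higher, beside 2.99% of genes, and 2 lower, beside 4.03%. Pmvk, one of the latter, stood at 19.4 against 33.9 CPM and 9.94 against 29.6 CPM, and unthinned at 26.7 against 29.7 and 20.9 against 32.1 CPM. Srebf2, the other, changed direction without thinning.

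Cells at the top of the immediate early list had sums whose ratios had intervals that span 0 (sterol 0.05 and -0.04, fatty acid -0.19 and -0.03). Srebf1 stood at 37.5 against 15.9 CPM (1.23, 0.59 to 1.83) medial and 32.3 against 12.6 CPM (1.36, 0.67 to 2.00) lateral, and at 36.58 against 16.21 and 30.02 against 15.35 CPM unthinned. It was the 1 member higher in both libraries, beside 6.53% of genes, and 2 rare members were lower, beside 3.39%. Insig1 stood at 69.8 against 35.0 CPM medial and 42.2 against 28.6 CPM lateral, short of 1.5-fold in the lateral library, and at 0.88 on the log2 scale in both when unthinned.

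In cells high in MHC class II genes 0 members were higher, beside 1.73% of genes, and 6 lower, beside 6.29%. The sterol sum was at -0.23 (-0.49 to 0.02) medial and -0.14 (-0.38 to 0.10) lateral. The fatty acid sum was at -0.01 (-0.24 to 0.21) and -0.08 (-0.31 to 0.13), so all these intervals span 0. Unthinned the sterol sum was at -0.26 (-0.42 to -0.10) and -0.21 (-0.35 to -0.07). Mvk, Sc5d and Fasn were among the lower ones, each with 4 or fewer UMIs in the thinned top range of a library. In the interferon range 1 member was higher, beside 2.22%, and 1 lower, beside 3.77%. The lower one was Srebf1, at -1.92 and -1.32, but at -0.33 and -0.32 with intervals that span 0 when unthinned, and the higher one, Sc5d, changed direction in the lateral library when unthinned. The interferon sterol sum was at -0.05 medial and 0.22 lateral and the fatty acid sum at -0.22 and -0.02, all with intervals that reach 0. Unthinned these were -0.23 (-0.38 to -0.09) and -0.02 (-0.16 to 0.12) for sterol and -0.13 (-0.27 to 0.00) and -0.14 (-0.28 to -0.01) for fatty acid enzymes. In the damage-associated range 0 members were higher, beside 1.21%, and 2 lower, beside 6.57%, and the thinned sums had intervals that span 0, while unthinned the medial sterol sum was at -0.18 (-0.32 to -0.05) and the lateral fatty acid sum at -0.13 (-0.25 to -0.01).

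**Figure D5:**
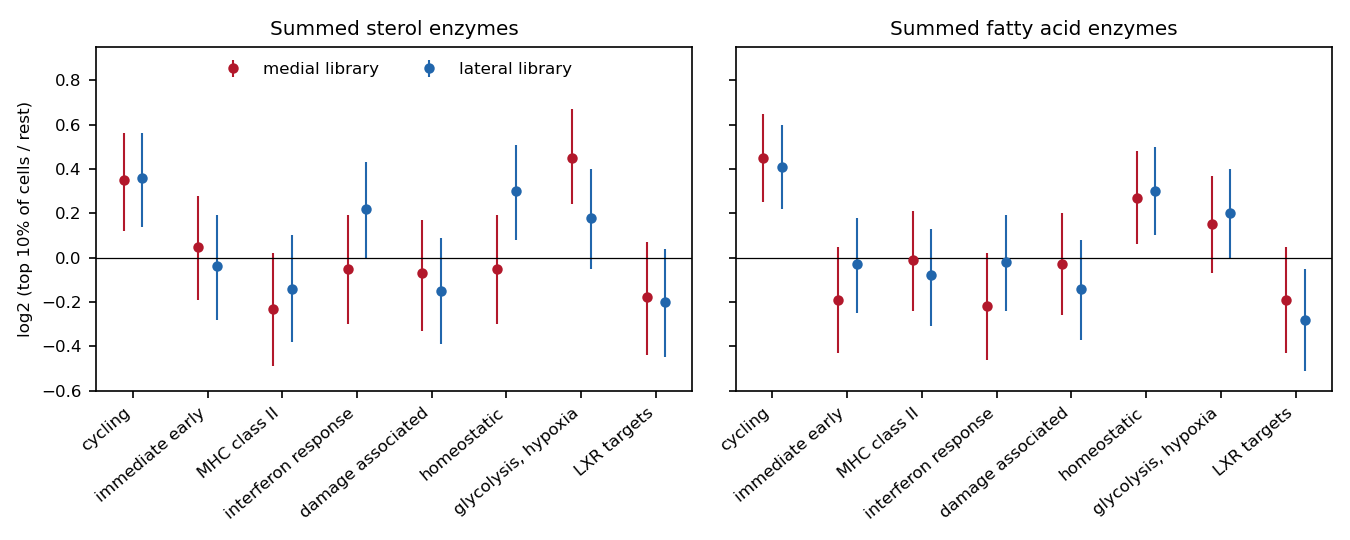
Log2 ratio of the summed sterol (left) and fatty acid (right) enzymes in the top 10% of cells by each state list to the other cells, after thinning to 3869 UMIs, in the medial (red) and lateral (blue) library, with exact 95% intervals for counting error. The cycling range is above 0 for both sums in both libraries (0.35 to 0.45), and the LXR target range is below 0 (-0.28 to -0.18).

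From cell to cell the variance of the members' counts lay near their mean, the value that counting alone gives. Means of measured members ran from 0.0095 (Tm7sf2) to 0.261 UMIs (Elovl1) per thinned medial cell. At such means real differences between cells move the ratio little, so it cannot show that cells were alike. Over thinned cells the median ratio of variance to mean was 1.005 medial and 1.011 lateral, beside 1.013 and 1.015 over genes of the same range of means. Ratios over 1.1 were found for Insig1 (1.19 and 1.14) and Scd2 (1.19 and 1.13) in both libraries and for Srebf1 in the medial one (1.12, against 1.06 lateral), beside 8.25% and 8.44% of genes. Pearson's r between the summed branches of a cell was 0.000 over 2000 medial and -0.022 over 2077 lateral cells, a description in sparse counts of cells that share a library and 1 depth. With fewer than 1 UMI per branch in the mean cell, such an r says nothing of whether the branches vary together. At that depth a sterol enzyme UMI was found in 54.4% and 55.5% of cells and a fatty acid enzyme UMI in 57.8% and 61.5%.

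Shares of cells with a UMI moved with depth. Ebp was found in 49.1% of medial and 46.2% of lateral cells as sequenced, but in 22.1% and 23.5% once each cell was thinned, which is the order of its CPM. Insig1 was found in 26.7% and 20.1%, and in 12.9% and 10.4% after thinning, the same order both ways. No cell type that lacks these genes was present to set a background, so the free RNA of barcodes with 1 to 100 UMIs was read instead. It held the sterol sum at 216.1 CPM medial and 245.5 CPM lateral and the fatty acid sum at 233.4 and 239.5 CPM. Against cells that is a log2 ratio of 0.06 (-0.04 to 0.16) and 0.15 (0.05 to 0.25) for sterol enzymes and of -0.05 and -0.06 for fatty acid enzymes. Insig1 in free RNA stood at 40.8 CPM (35.0 to 47.2) medial and 32.9 CPM (27.6 to 38.9) lateral, in the same order as in cells. Of the 8 members past 1.2 between the libraries, 4 stood in the same order in free RNA and 4 in the opposite one. Nsdhl, at 2.74 and 6.96 CPM, was among the former. Mvk (7.07 and 5.999 CPM), Dhcr7 (10.3 and 8.40), Scap (13.2 and 12.96) and Tm7sf2 (3.19 and 4.80) were the latter, from few UMIs. Srebf2 was lower in free RNA, at 4.56 CPM in both libraries against 8.28 and 7.98 CPM in cells. These CPM give the make-up of free RNA, not its amount. In all, 317127 medial and 321595 lateral barcodes held 4386644 and 4167228 free UMIs, against a median of 10732 and 9694 UMIs in a cell. The part of free RNA in the shares was not tested. As shares moved with depth, a share of cells with a UMI cannot be read as a share of cells that transcribe the gene.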

How the data were processed

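The deposited values are whole-number UMI counts per gene and barcode, made by the authors with Cell Ranger 2.0.1, STAR and mm10, per the submitters' processing notes. The notes do not name the gene annotation. Each table held 27998 genes and 737280 barcodes. The members and all gene lists were chosen with earlier results of these data known.

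Barcodes with at least 2400 UMIs and at most 10% mitochondrial UMIs were kept as cells, which removed 3 by the mitochondrial limit in each library. The 56 symbols with several gene IDs were summed. UMIs were summed over cells and divided by their total (CPM). Intervals were exact Poisson for a level and exact conditional binomial for a ratio. Only the ratio interval was checked on simulated data. Those were Poisson counts, which hold no added variation between cells or libraries. All members were named, with full values from 100 UMIs. Other genes were named by abundance or by passing the mark, and genes in a cell range by a 1.5-fold difference in both libraries. For per-cell values cells were thinned to 3869 UMIs, which left out 131 medial and 231 lateral cells. Scrublet from scanpy 1.11.5, at an expected rate of 0.05, marked 5 barcodes in each library, under 0.5% of cells, and none was removed. TMM factors came from edgeR 4.0.16. Positions came from GENCODE for GRCm38, and promoters from RefSeq on GRCm38.p6. Alternatives changed the limits on cells and genes, doublets, scaling, thinning, the mark, the range of cells, and the free RNA limit. One listed symbol, Faxdc2, was not analysed here, and a cycling gene was found under an older symbol by its ID. Backgrounds limited to genes of 100 to under 1000 UMIs and to promoters of measured genes were added after the data were seen.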

Additional observations from a re-analysis of the deposited data

How the results depend on the processing

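Of 351 member ratios recomputed between the libraries, 43 in 21 genes had the opposite sign, and 27 moved by more than the counting error of the reported one or, from past 1.2, changed sign. Of members reported past 1.2, 3 changed sign: Cyp51 to -0.019 in the lower immediate early tercile, Tm7sf2 to -0.090 in thinned cells and Sc5d to 0.012 in the middle tercile. The 3 members higher by 1.2 became 1 with each cell counted alike, 5 in thinned cells, 5 with no minimum of UMIs and 0 at a ratio of 1.5. The 5 lower members became 3 with a minimum of 5000 UMIs per cell, 3 in thinned cells, 2 when centred, 2 with TMM, 8 in the middle tercile, 1 in the upper tercile and 0 at a ratio of 1.5. The sterol median moved to -0.133 with each cell counted alike and to 0.056 in the upper tercile, and the sterol sum to -0.190 in the lower and 0.008 in the upper tercile. The fatty acid median moved to -0.061 in thinned cells and -0.077 in the middle tercile, and its sum to -0.104 in thinned cells and -0.101 in the lower tercile. The sterol share of both branches was 52.0% and 52.5% without Acly, and 45.9% in the lateral library after thinning. In cell ranges 21 of 186 values had the opposite sign. Branch sums gave 16 of these, none in the cycling or LXR target range, among them the medial homeostatic sterol sum (0.145 at the top 5% of cells, 0.211 at the top 20% and 0.235 unthinned), the damage-associated sterol sum (0.197 medial at the top 5%, 0.162 lateral at the top 20%) and the lateral interferon sterol sum (-0.018 unthinned). The other 5 were members past 1.5: Sc5d in the lateral interferon range (-0.350 unthinned), Srebf2 in the homeostatic range (0.291 and 0.223 unthinned), Msmo1 in the medial glycolysis range (-0.410 at the top 5% of cells) and Mvk in the lateral LXR target range (0.135 at the top 20%). Apart from settings that change which cells or genes enter, the cause was not tested. No paired analysis was possible because each region has 1 library. Depth limits the members with few UMIs, whose cell-range values rest on single counts.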
